A study of Schizosaccharomyces pombe with 130 samples.

Results

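The G1/S genes of fission yeast (Schizosaccharomyces pombe) that are controlled by the transcription factor MBF were followed through every genotype of a study of RNA decay and heterochromatin. The genes were taken by name, and all 9 listed names (cdc18, cdt1, cdt2, cig2, mik1, cdc22, suc22, nrm1 and yox1) were found among 7021 features, of which 5111 are protein-coding. Pol II occupancy was measured by ChIP, and nascent RNA by sequencing the RNA bound to Pol II (RIP), both with an antibody to the elongating, serine 2 phosphorylated polymerase. Steady-state RNA was measured as p(A) RNA and, in 3 mutants and wt, as total RNA. All cells were grown in rich medium.

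The tested strains fall into 4 sets. In caf1*ccr4* both deadenylases of the Ccr4-Not complex, Caf1 and Ccr4, carry point mutations in their active sites. The complex is further affected in caf1Δ, ccr4Δ and mot2Δ, the last without its ubiquitin ligase, while caf1Δago1Δ and caf1Δdcr1Δ combine loss of Caf1 with loss of Argonaute or Dicer. Other RNA decay is affected in exo2Δ (the cytoplasmic 5′ to 3′ exonuclease) and rrp6Δ (the nuclear exosome), and RNAi alone in ago1Δ. Heterochromatin factors are missing in clr4Δ (the H3K9 methyltransferase), swi6Δ and chp2Δ (HP1 proteins), clr3Δ (a histone deacetylase) and mit1Δ (a chromatin remodeller). The wt libraries came from an h+ strain or from an h90 strain with FLAG-tagged ago1. Both wt RIP libraries are of the h+ strain. The caf1*ccr4*, caf1Δ, ccr4Δ, mot2Δ, swi6Δ and chp2Δ strains and 1 caf1Δago1Δ strain are h90. The tagged ago1 is carried by rrp6Δ, exo2Δ, ccr4Δ, mot2Δ and 1 of the caf1Δ strains. The caf1*ccr4* strain and the other caf1Δ strain have further marker genes and telomeric reporters that wt lacks. The mit1Δ strain differs from wt in the site of its ura4 reporter and in its ura4 and ade6 alleles. In all of these, the RIP comparison cannot tell mutant and strain background apart. The study does not list the caf1Δdcr1Δ strain or the other caf1Δago1Δ strain, so their backgrounds are not known. Most mutants are 1 strain. The study calls its replicates biological and its samples independent, but does not describe separate cultures. The p-values measure the spread between libraries, and how much of it is technical is not known.

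The files used hold 32 p(A) RNA, 37 RIP, 31 ChIP, 8 total RNA and 13 ChIP input libraries. Total counts ran from 2758279 to 21557104 (median 12981542) in p(A) RNA, from 279965 to 5307933 (median 1690800) in RIP, from 2151943 to 20373182 (median 5348524) in ChIP and from 637734 to 6100507 in total RNA. Each deleted gene was checked in its own mutant: in p(A) RNA it stood at 0.143% to 108% of the wt mean (median 3.385%). Values over 30% were those of clr4 in the libraries labelled clr4Δ (75.7% and 108%), swi6 in the libraries labelled swi6Δ (30.8%, 60.3% and 32.6%) and caf1 in 1 library labelled caf1Δ (51.4%, against 16.9% in the other). The deleted genes stood at 0% to 92% of the wt mean in RIP (median 21.1%) and at 0.808% to 225% in ChIP (median 51.6%). In the libraries labelled caf1Δ, caf1 stood at 31.7% and 48.6% in RIP and at 97.1% and 171% in ChIP. In the only RIP library labelled caf1Δdcr1Δ, dcr1 stood at 51.7% and caf1 at 27.8%. Of 31 ChIP libraries, 5 were flat. The 100 genes highest in wt took 3.47% and 2.72% of the signal in the 2 caf1Δago1Δ libraries, 3.78% in chp2Δ replicate 3, 3.57% in mit1Δ replicate 3 and 3.14% in rrp6Δ replicate 3, against 1.71% to 2.92% in input and 8.33% to 16% in the other ChIP libraries. The mit1Δ and rrp6Δ libraries were left out of the fits and chp2Δ replicate 3 was kept, as was caf1Δago1Δ, which has no other ChIP library.

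MBF binds MCB boxes (MluI cell cycle boxes, ACGCGT with the core ACGCG) and switches on transcription as cells pass from G1 into S phase. Its core is Cdc10 with Res1 and Res2, and the products of its targets include both the machinery of replication and the repressors that close the wave again. All the values here are from whole cultures, in which a smaller share of cells in G1/S and less RNA in each of those cells cannot be told apart.

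The MCB boxes were looked for in the RefSeq reference genome (ASM294v3), in the 300 bases before each annotated gene start, as ACGCG on either strand. An ACGCGT is palindromic and counts as a core on each strand. Of 5112 promoters in the reference, 543 (10.6%) held the core at least 1 time, 55 (1.08%) held at least 3 cores and 148 (2.9%) held ACGCGT. Of the 9 genes, 7 held 3 or more cores: cdc22 and cdt2 had 7 each, cdc18 had 6, cig2 had 5, cdt1 had 4, and nrm1 and yox1 had 3 each. The last 100 bases before each of these 7 gene starts are shown because they hold most of the matches, with the cores in capitals and each sequence on the strand of its gene.
cdc18, chrII:2217985-2218084, minus strand: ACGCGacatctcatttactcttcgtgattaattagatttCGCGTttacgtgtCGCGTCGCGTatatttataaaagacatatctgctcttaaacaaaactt
cdt1, chrII:477292-477391, plus strand: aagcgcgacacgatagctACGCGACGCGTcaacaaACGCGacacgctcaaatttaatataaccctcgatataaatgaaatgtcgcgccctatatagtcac
cdt2, chrI:2035705-2035804, minus strand: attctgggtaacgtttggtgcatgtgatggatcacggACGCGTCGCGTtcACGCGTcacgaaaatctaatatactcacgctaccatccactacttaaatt
cig2, chrI:2709682-2709781, plus strand: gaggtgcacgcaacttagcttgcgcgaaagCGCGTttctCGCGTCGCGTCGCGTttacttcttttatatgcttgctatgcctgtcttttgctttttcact
cdc22, chrI:4226870-4226969, plus strand: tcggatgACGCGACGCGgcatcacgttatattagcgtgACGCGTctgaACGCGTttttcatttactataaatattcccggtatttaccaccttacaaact
nrm1, chrII:4285844-4285943, plus strand: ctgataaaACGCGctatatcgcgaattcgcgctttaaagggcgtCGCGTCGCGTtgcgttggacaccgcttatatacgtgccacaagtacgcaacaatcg
yox1, chrII:1648132-1648231, plus strand: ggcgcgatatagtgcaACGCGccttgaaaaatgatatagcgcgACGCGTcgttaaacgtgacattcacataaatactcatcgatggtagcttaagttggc
Cores often abut, as in the CGCGTCGCGT pairs of cdc18, cig2 and nrm1 and the ACGCGACGCG pairs of cdt1 and cdc22, and in each of the 7 genes the nearest core lay between 43 (cdc18) and 65 (cdt1) bases before the gene start.

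The other 2 genes held no core in this window. In mik1 the annotated gene start lies 401 bases before the start codon, and that stretch held 9 cores, from 382 to 315 bases before the codon. The 30 bases with the densest matches, printed for comparison with the promoters above, are these.
mik1, chrII:221334-221363, plus strand: aatgaaaaACGCGaACGCGTcatgACGCGT
In suc22 the nearest core lay 574 bases before the annotated start, and its last 100 bases, shown as the contrast to the others, read as follows.
suc22, chrII:3721523-3721622, plus strand: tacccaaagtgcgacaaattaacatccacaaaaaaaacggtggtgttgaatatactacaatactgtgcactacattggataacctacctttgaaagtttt
A match here is a run of letters and was not tested for binding.

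In wt, levels are given as TPM (counts per gene length, scaled to the same total over coding and heterochromatic features in each library). In RIP, cdc22 stood far above the others at 970 ± 66.7 TPM (SD, n = 2, as for all wt RIP and ChIP values). It encodes the large subunit of ribonucleotide reductase, which makes deoxynucleotides for replication (SPAC1F7.05, chrI:4226970-4229989). The next 4 lay close together: cdc18 had 234 ± 6.06, nrm1 220 ± 36.6, cig2 186 ± 0.715 and suc22 180 ± 0.871. cdt1 (164 ± 33.3), cdt2 (120 ± 0.365), yox1 (89.4 ± 3.19) and mik1 (57.5 ± 0.575) were lower, and the median coding gene had 105 TPM. The libraries of cdc18 overlapped those of nrm1, and those of cdt1 overlapped those of cig2 and suc22, while the other neighbours in this order did not overlap.

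Pol II occupancy in wt was also highest over cdc22, at 520 ± 41.0 TPM. nrm1 (259 ± 20.4), cig2 (226 ± 47.1), suc22 (208 ± 9.69) and cdc18 (201 ± 10.2) followed, each overlapping the next. cdt1 had 137 ± 14.4 and cdt2 123 ± 26.2, which overlapped, and mik1 had 74.5 ± 21.1 and yox1 43.2 ± 9.86, which did not, all below the median coding gene at 150.

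In p(A) RNA the order was another one. suc22, the small subunit of ribonucleotide reductase (SPBC25D12.04, chrII:3721623-3723072), led with 560 ± 117 TPM (SD, n = 4, as for all wt p(A) RNA values) and cdc22 was next with 190 ± 115. The other 7 genes lay between 73.7 ± 12.1 (nrm1) and 25.6 ± 15.1 (mik1), each overlapping its neighbours in the order, and the median coding gene had 68.7 TPM. The ratio of p(A) RNA to RIP was 0.145 for cdc18, lower than in all but 6.08% of 4754 coding genes, and 3.12 for suc22, at percentile 94.1. Over the 9 genes the median ratio was 0.335, against 0.669 over the coding genes.

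The 4 wt p(A) RNA libraries spread widely for these genes. The highest was 7.66 times the lowest for cdt1 (7.93, 60, 32.7 and 60.7 TPM), 3.58 times for cdc22 (110, 208, 96.5 and 345) and 3.35 times for cdc18 (14.9, 44.6, 25.6 and 49.9). In this order of libraries (replicates 1, 3, 4 and 2), replicates 1 and 4 were the low ones for most members, while nrm1 (66.3, 76.3, 62.5 and 89.7) and suc22 (474, 660, 444 and 661) spread less. Replicate 2 is of the h90 strain with tagged ago1, and the others are of the h+ strain. It was the highest library for every member except cdt2. Differences between strains and between libraries cannot be told apart here. The median over the 9 genes was 3.18, against 1.72 over 4951 coding genes. In RIP the wt ratio was 1.04 against 1.22, from 2 libraries. Such a ratio grows with the number of libraries, so it does not compare the spread of p(A) RNA with that of RIP. The tests below take their spread from all genotypes of an assay, not from wt alone.

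In the nascent RNA of caf1*ccr4*, 7 of the 9 genes were lower than in wt by the test (edgeR quasi-likelihood, Benjamini-Hochberg adjusted over 5046 features): cdc18, cdt1, cdt2, cig2, mik1, nrm1 and cdc22. The background is that 4.48% of all features were called lower in this mutant and 7.51% in either direction. The median log2 fold change was -1.35 over the 9 genes and 0.01 over all features. suc22 and yox1 were not called.

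The replication licensing factors come first. cdc18, the fission yeast Cdc6 (SPBC14C8.07c, chrII:2215955-2217984), loads the replicative helicase at origins and had 80.9 and 103 TPM in caf1*ccr4* RIP, against 238 and 229 in wt. Its log2 fold change was -1.51 (SE 0.34, adjusted p = 0.00734). cdt1, which acts with Cdc18 (SPBC428.18, chrII:477392-478738), had 28.6 and 63.4 TPM in caf1*ccr4* and 188 and 141 in wt, with log2 fold change -1.96 (SE 0.37, adjusted p = 0.00184). In both genes the mutant libraries lay below the wt libraries with no overlap.

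cdt2 encodes the substrate adaptor of the Cul4 ubiquitin ligase that destroys Cdt1 and the ribonucleotide reductase inhibitor Spd1 (SPAC17H9.19c, chrI:2033768-2035704). It had 44.1 and 50.7 TPM in caf1*ccr4*, against 119.6 and 120.2 in wt, with log2 fold change -1.50 (SE 0.31, adjusted p = 0.00347). The reductase gene cdc22 itself had 452 and 403 TPM in caf1*ccr4* and 1018 and 923 in wt, with log2 fold change -1.35 (SE 0.32, adjusted p = 0.00946). For both genes, each mutant library lay below each wt library.

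The cell cycle regulators followed. cig2, the B-type cyclin of G1/S (SPAPB2B4.03, chrI:2709782-2714162), had 93.2 and 128 TPM in caf1*ccr4* and 186 and 185 in wt, with log2 fold change -0.92 (SE 0.24, adjusted p = 0.0166). mik1, a kinase that inhibits Cdc2 alongside Wee1 (SPBC660.14, chrII:221298-224117), had 4.23 and 26.3 TPM in caf1*ccr4*, from 5 and 48 counts, and 57.1 and 58.0 TPM in wt, from 370 and 88 counts. Its log2 fold change was -1.97 (SE 0.47, adjusted p = 0.0118). The mik1 libraries of the mutant differ more from each other than those of any other called member, and the first holds only a handful of counts.

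Of the 2 repressors that act on MBF, 1 was called. nrm1, the corepressor that binds MBF at the end of the wave (SPBC16A3.07c, chrII:4285944-4288583), had 122 and 156 TPM in caf1*ccr4* RIP and 246 and 194 in wt, with log2 fold change -0.83 (SE 0.21, adjusted p = 0.0141). yox1, the homeodomain repressor that acts with Nrm1 (SPBC21B10.13c, chrII:1648232-1648840), had 95.0 and 52.7 TPM in caf1*ccr4*, against 91.7 and 87.2 in wt, with log2 fold change -0.47 and adjusted p = 0.496. The yox1 groups overlap. suc22 stood on the other side, with 318 and 284 TPM in caf1*ccr4* against 180 and 179 in wt. No library overlapped, but the log2 fold change of 0.58 (SE 0.24) had adjusted p = 0.148.

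All 7 calls depend on 1 mutant library, and most of them on a wt library too. Without caf1*ccr4* replicate 1 all 7 kept a negative log2 fold change, between -1.56 and -0.67, and all 7 lost the call, with adjusted p from 0.0688 to 0.253 and the lone library assumed to vary like the other groups. Without wt replicate 2 the calls of cdc18, cdc22, cig2, mik1 and nrm1 were lost, and without wt replicate 1 that of nrm1. The log2 fold change of mik1 ran from -3.90 to -1.31 over all repeats without 1 library of either group.

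**Figure D1:**
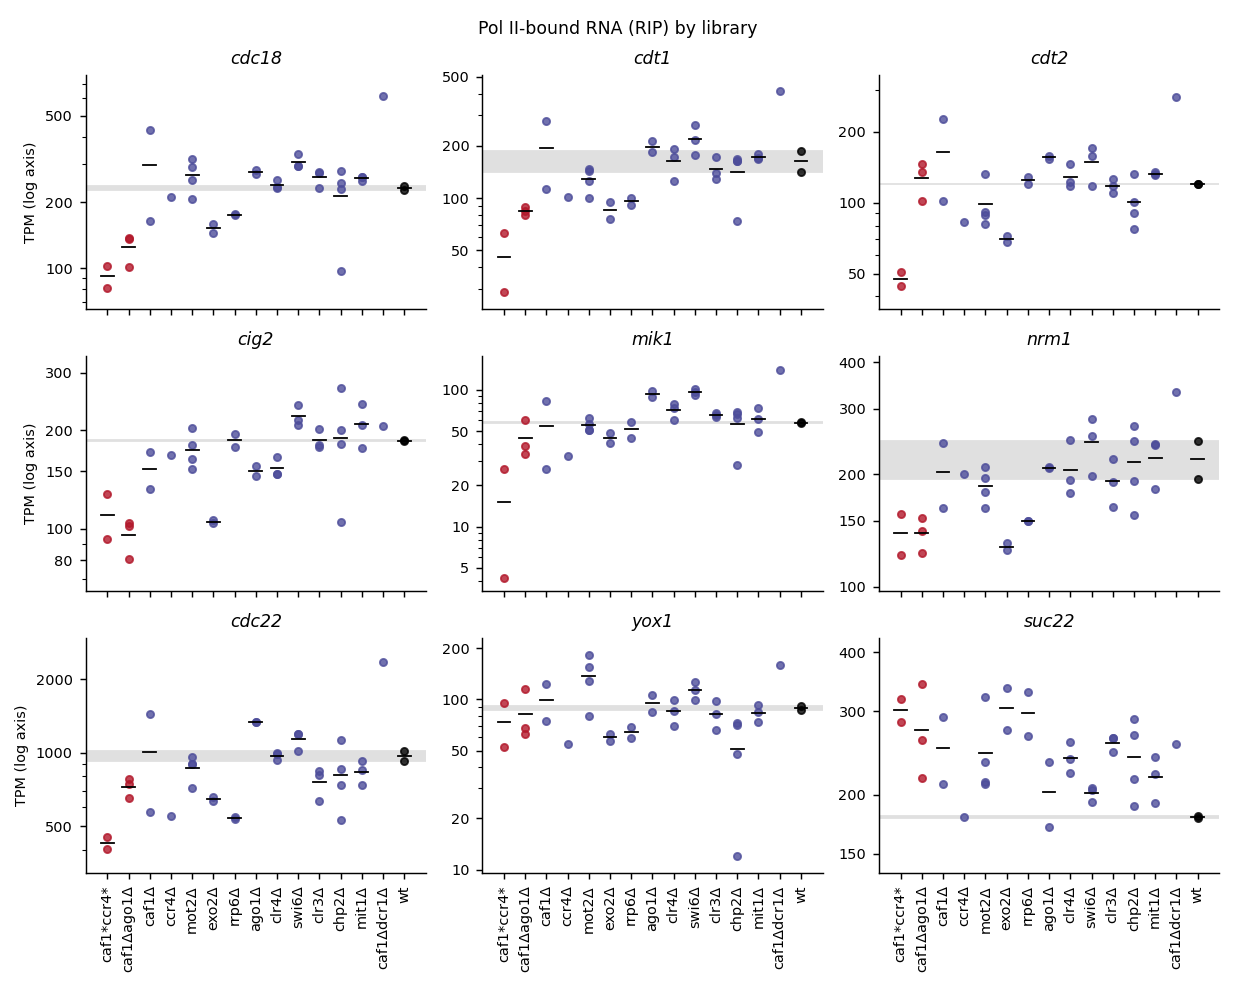
TPM of each gene in every RIP library (points, log axis), by genotype from left to right with wt last. Short lines are means, the grey band is the range of the 2 wt libraries, and red marks caf1*ccr4* and caf1Δago1Δ: both caf1*ccr4* libraries lie below the wt band in 7 genes and above it in suc22, and for yox1 1 lies above it and 1 below.

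In the RIP libraries of caf1Δago1Δ, 4 of the 9 genes fell below wt: cig2, nrm1, cdc18 and cdt1. Here 6.86% of all features were called lower and 13.6% in either direction, and the median log2 fold change was -0.48 over the 9 genes, against 0.01 over all features. cig2 had 80.5, 102 and 104 TPM in caf1Δago1Δ and 186 and 185 in wt, with log2 fold change -1.03 (SE 0.22, adjusted p = 0.00245). nrm1 had 153, 141 and 123 in caf1Δago1Δ and 246 and 194 in wt, with log2 fold change -0.74 (SE 0.19, adjusted p = 0.0107). In both, every mutant library was below every wt library.

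cdc18 had 102, 138 and 136 TPM in caf1Δago1Δ, against 238 and 229 in wt, with log2 fold change -0.97 (SE 0.31, adjusted p = 0.0366). cdt1 had 80.2, 89.0 and 84.9 in caf1Δago1Δ, against 188 and 141 in wt, with log2 fold change -1.03 (SE 0.33, adjusted p = 0.0388). These 2 did not overlap wt either, but both lost the call when any 1 of the 5 libraries was left out, with adjusted p from 0.0632 to 0.226. The nrm1 call was lost in 2 of the 5 repeats (highest adjusted p 0.116) and the cig2 call in none. cdt2, at 102, 135 and 146 TPM in caf1Δago1Δ, lay on both sides of wt, with log2 fold change 0.02 (SE 0.27, adjusted p = 0.972). It is a gene called in caf1*ccr4* but not here, and the difference between the 2 mutants was not tested.

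In exo2Δ RIP nrm1 was called by edgeR, at 130.7 and 125.2 TPM in exo2Δ against 246 and 194 in wt, with log2 fold change -0.80 (SE 0.21, adjusted p = 0.0315) where 0.614% of features were called lower and 2.36% in either direction. It lost the call in each repeat without 1 of the 4 libraries, with adjusted p from 0.0705 to 0.256. Another 4 of the 9 genes (cdt1, cdt2, cig2 and suc22) passed the unadjusted threshold of 0.05 in edgeR without a call, of which cig2 was called by DESeq2 and with the replicate block. In rrp6Δ RIP, where 3.9% of features were called, no member was called by edgeR, with 4 at an unadjusted p under 0.05. The percentages for both mutants are of adjusted calls. The share of all features at an unadjusted p under 0.05 is not given, so the member counts at that threshold have no background. nrm1 came nearest there, at 150.3 and 149.9 TPM in rrp6Δ against 246 and 194 in wt (log2 fold change -0.68, adjusted p = 0.0557). DESeq2 called nrm1 and cdc22 lower in rrp6Δ. For calls by DESeq2 or in another alternative setting, here and below, the share of all features called is not given. Such calls therefore have no background to be held against. In each of exo2Δ and rrp6Δ, 8 genes lay below wt by the sign of the log2 fold change, with suc22 the exception in both.

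The single genotypes of the same complex had no member called in RIP. In caf1Δ RIP, from 2 strains, cdc18 had 164 and 432 TPM, cdt1 113 and 279, and cdc22 571 and 1438, so that the 2 caf1Δ libraries lay on either side of wt (cdc22 1018 and 923). There 0.951% of features were called. In mot2Δ (4 libraries, 2.79% of features called) the members had log2 fold changes from -0.40 to 0.51. ccr4Δ had 1 RIP library and so no test: all 9 genes were below the wt mean, with a median log2 fold change of -0.66. caf1Δdcr1Δ, also 1 library, had 8 of 9 above wt, with a median of 1.04: cdc18 stood at 618 TPM and cdc22 at 2363, the highest RIP values of both. No member was called in RIP of ago1Δ, clr4Δ, swi6Δ, clr3Δ, chp2Δ or mit1Δ, where only suc22 in clr3Δ passed the unadjusted threshold of edgeR (adjusted p = 0.536). Few features were called in these mutants: 0.535% in ago1Δ, 0.357% in clr4Δ, 0.258% in swi6Δ, 0.713% in clr3Δ, 0.178% in chp2Δ and 0.139% in mit1Δ.

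Across the 15 genotypes of RIP the members varied together, as a description with no test, since every genotype shares the same scaling and the same cultures for all genes. The correlation of a gene with the mean of the other 8 was 0.95 for cdt1, 0.94 for cdc18, 0.92 for cdc22, 0.89 for cdt2 and for mik1, 0.83 for nrm1, 0.67 for yox1 and 0.59 for cig2. For suc22 it was -0.35. The median pair of members had r = 0.72, against 0.07 for the median pair of coding genes. In p(A) RNA (13 genotypes) the median pair had 0.26 against 0.07 and suc22 again stood apart at -0.34, and in ChIP (14 genotypes) it had 0.41 against 0.16.

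**Figure D2:**
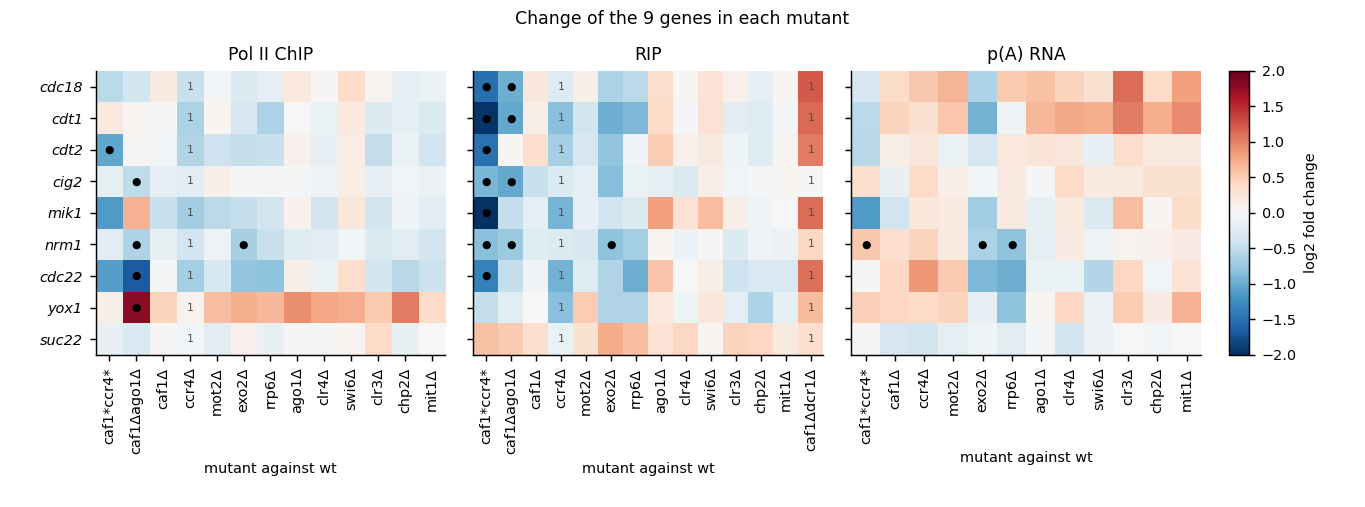
Colour is the log2 fold change of each gene (rows) in each mutant against wt (columns), in Pol II ChIP, RIP and p(A) RNA. Dots mark adjusted p under 0.05 and the digit 1 marks a mutant with 1 library and no test: dots stand in RIP for 7 genes in caf1*ccr4*, 4 in caf1Δago1Δ and 1 in exo2Δ, against 3 dots in all of p(A) RNA, each on nrm1.

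In p(A) RNA only nrm1 was called, in 3 of the 12 mutants and in opposite directions. It rose in caf1*ccr4*, with 122 and 149.9 TPM in the mutant against 66.3, 76.3, 62.5 and 89.7 in wt, a log2 fold change of 0.54 (SE 0.18, adjusted p = 0.0354) where 9.4% of 5066 features were called higher and 19.3% in either direction. In the same mutant its nascent RNA was lower, as given above. It fell in rrp6Δ, with 50.4 and 49.2 TPM against the same wt libraries, a log2 fold change of -0.80 (SE 0.19, adjusted p = 0.00245, with 16.6% of features called lower and 32% in either direction). It also fell in exo2Δ, with 49.0 and 46.5 TPM, a log2 fold change of -0.64 (SE 0.19, adjusted p = 0.0165, with 11.3% called lower and 23.1% in either direction). None of the 3 mutants overlapped wt. The rrp6Δ call held without any 1 of its 6 libraries (highest adjusted p 0.0492), that in caf1*ccr4* was lost in 4 of 6 such repeats (highest 0.351) and that in exo2Δ in 3 of 6 (highest 0.161).

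The other 8 genes had no call in p(A) RNA, and most differences sat inside the wide wt range. Among the mutants without a member call, 16.8% of features were called in caf1Δ, 13.9% in swi6Δ, 6.55% in ago1Δ, 5.45% in mot2Δ, 4.99% in ccr4Δ, 1.36% in clr4Δ, 0.947% in clr3Δ, 0.336% in chp2Δ and 0.257% in mit1Δ. In exo2Δ all 9 genes were below wt, with a median log2 fold change of -0.61 against -0.07 over all features, and cdt1 had 22.5 and 19.6 TPM, against 7.93 to 60.7 in wt. In clr3Δ and in mit1Δ all 9 were above wt, with medians of 0.42 and 0.30, and cdc18 reached 74.8 and 63.6 TPM in clr3Δ, above every wt library (14.9 to 49.9), with no call. In caf1*ccr4* mik1 had 13 and 16 TPM, against 16.6, 25.2, 13.6 and 47.0 in wt, at log2 fold change -1.14, the lowest of the 9. suc22 had 737 and 709 TPM in caf1*ccr4*, just above its wt range of 444 to 661, and its partner in the enzyme, cdc22, had 220 and 264, within its wt range of 96.5 to 345. In swi6Δ replicate 1 every member was lower than in the other 2 swi6Δ libraries (mik1 3.62 against 23.6 and 33.7 TPM, cdt1 8.90 against 85.0 and 99.6), and no member was called in that mutant.

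**Figure D3:**
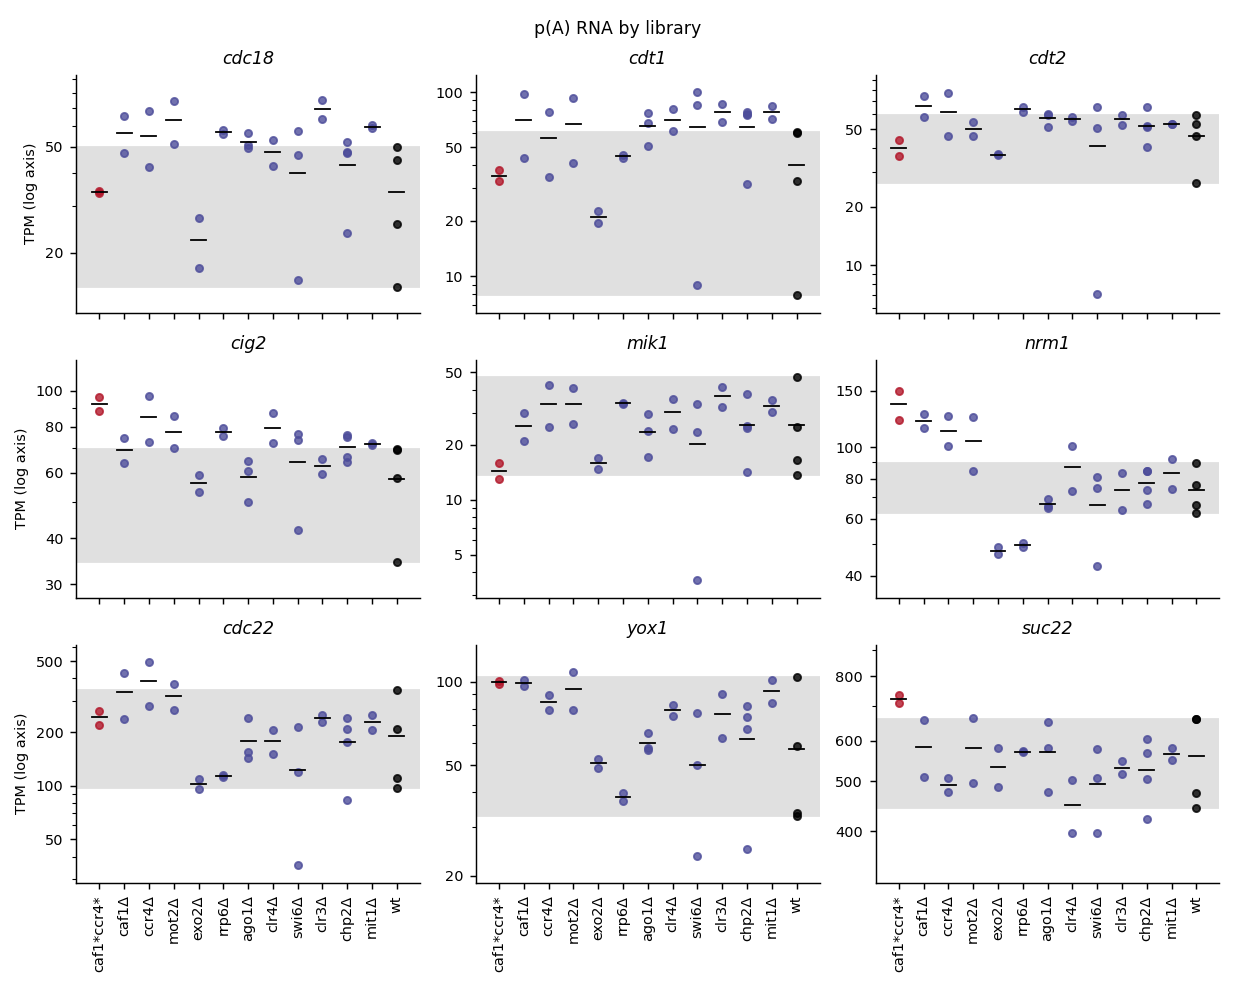
TPM of each gene in every p(A) RNA library (points, log axis), by genotype with wt last. Short lines are means and the grey band is the range of the 4 wt libraries, which for cdt1 reaches from 7.93 to 60.7 TPM and for nrm1 only from 62.5 to 89.7: most points fall inside the band, and nrm1 stands outside it in caf1*ccr4*, exo2Δ and rrp6Δ.

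In total RNA the 9 genes were compared in caf1Δ, ago1Δ and clr4Δ with wt, with 2 libraries each. Both wt libraries are of the h90 strain with tagged ago1, a background that the caf1Δ strain shares. The ago1Δ and clr4Δ strains are h+ and untagged, so mutant and strain background cannot be told apart there. The wt libraries are replicates 2 and 3, and those of each mutant are replicates 1 and 2. edgeR called 0 of the 9 genes and 0 of 4959 features in each of the 3 mutants, DESeq2 called 0 of the 9 genes, and 0 of them passed an unadjusted p of 0.05. The libraries of 1 genotype differed more than the genotypes did: cdc18 had 71.6 and 5.98 TPM in caf1Δ, 68.1 and 16.8 in ago1Δ and 41.8 and 4.49 in clr4Δ, against 9.13 and 35.5 in wt. cig2 had 99.4 and 10.6 TPM in caf1Δ, 74.5 and 13.6 in ago1Δ and 56.9 and 7.56 in clr4Δ, against 8.35 and 24.5 in wt. In each mutant replicate 1 was the high library, and suc22 (660 and 314 in caf1Δ, 369 and 310 in wt) moved the same way within caf1Δ.

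In edgeR, Pol II occupancy was called changed for 1 gene in caf1*ccr4*. Over cdt2 the mutant had 46.9 and 63.5 TPM and wt 142 and 105, a log2 fold change of -1.04 (SE 0.21, adjusted p = 0.00667) where 3.15% of 5087 features were called lower and 9.69% in either direction. Another 2 genes were on the same side without a call in edgeR (DESeq2 called mik1): mik1 had 35.4 and 29.3 TPM in caf1*ccr4* and 89.4 and 59.5 in wt (log2 fold change -1.13, adjusted p = 0.0617), and cdc22 had 223 and 232 TPM in caf1*ccr4* and 491 and 549 in wt (log2 fold change -1.10, adjusted p = 0.106). When the flat ChIP libraries were left out, cdt2, cdc22 and mik1 were called, with log2 fold changes of -1.09 for cdt2, -1.15 for cdc22 (adjusted p = 0.0442) and -1.18 for mik1 (adjusted p = 0.0383). The cdt2 call was lost in 2 of the 4 repeats without 1 library (highest adjusted p 0.0833). cdt1, the gene with the largest fall among the licensing factors in RIP, had 151 and 146 TPM over the gene in caf1*ccr4* and 148 and 127 in wt, with no call in ChIP.

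In exo2Δ ChIP nrm1 was called lower, with 171 and 155 TPM in exo2Δ and 274 and 245 in wt, a log2 fold change of -0.67 (SE 0.18, adjusted p = 0.049, with 1.12% of features called lower and 3.15% in either direction). It lost the call without any 1 of its 4 libraries (adjusted p from 0.0582 to 0.23). The ChIP counts ignore strand, and nrm1 and cig2 each overlap a gene on the opposite strand in the reference annotation (tad1 by 1442 bases and pmc1 by 1459 bases), and annotated antisense RNAs cover all 3020 bases of cdc22, 2449 of mik1, 983 of cdc18 and 442 of suc22. The ChIP values of these 6 genes cannot be assigned to 1 strand. cdt2 shares 188 bases with an annotated gene on its own strand.

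In caf1Δago1Δ, whose 2 ChIP libraries are flat, 4 members were called, 3 lower and 1 higher, beside 23% of all features called lower, 18.9% higher and 41.9% in either direction. cdc22 had 209 and 217 TPM in caf1Δago1Δ and 491 and 549 in wt (log2 fold change -1.67, SE 0.44, adjusted p = 0.00635). yox1 had 178 and 214 in caf1Δago1Δ and 36.3 and 50.2 in wt (log2 fold change 1.80, SE 0.36, adjusted p = 0.00179). Both values sit inside or next to what sequenced input gave: 180 to 213 TPM over cdc22 and 125 to 208 over yox1 in 13 input libraries. nrm1 (211.6 and 229.3 TPM in caf1Δago1Δ, 274 and 245 in wt) had log2 fold change -0.61 (SE 0.18, adjusted p = 0.012). Its caf1Δago1Δ values lay above its input (158 to 195). cig2 was called at log2 fold change -0.51 (SE 0.20, adjusted p = 0.0485), although its 208 and 205 TPM in caf1Δago1Δ lie between the wt values of 192 and 259. mik1, at 143 and 168 TPM in caf1Δago1Δ and 89.4 and 59.5 in wt, was close to its input (150 to 174) without a call. Over coding genes, the Spearman correlation with mean input was 0.146 and 0.091 in the caf1Δago1Δ libraries. It was 0.535 to 0.877 among input libraries, and -0.019 to 0.128 in ChIP libraries that were not flat. The part of background DNA in these ChIP values was not tested.

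yox1 had the lowest Pol II occupancy of the 9 in wt, and its log2 fold change was positive in all 13 mutants, from 0.07 in ccr4Δ (1 library) to 1.80 in caf1Δago1Δ, with a call in caf1Δago1Δ alone when edgeR used all of these libraries. All of these share the same 2 wt libraries. Leaving out the flat libraries removes caf1Δago1Δ itself, and yox1 was then called in none of the remaining mutants. Without chp2Δ replicate 1, and with the flat replicate 3 kept, edgeR called yox1 higher in chp2Δ (log2 fold change 1.31, adjusted p = 0.0498). No other mutant had a member called in ChIP by edgeR with these libraries, while DESeq2 called cdt1 lower in rrp6Δ. Few features were called in them by edgeR: 3.03% in mot2Δ, 2.63% in rrp6Δ, 0.216% in clr3Δ, 0.0983% in caf1Δ and in chp2Δ, 0.0197% in mit1Δ, and 0% in ago1Δ, clr4Δ and swi6Δ.

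**Figure D4:**
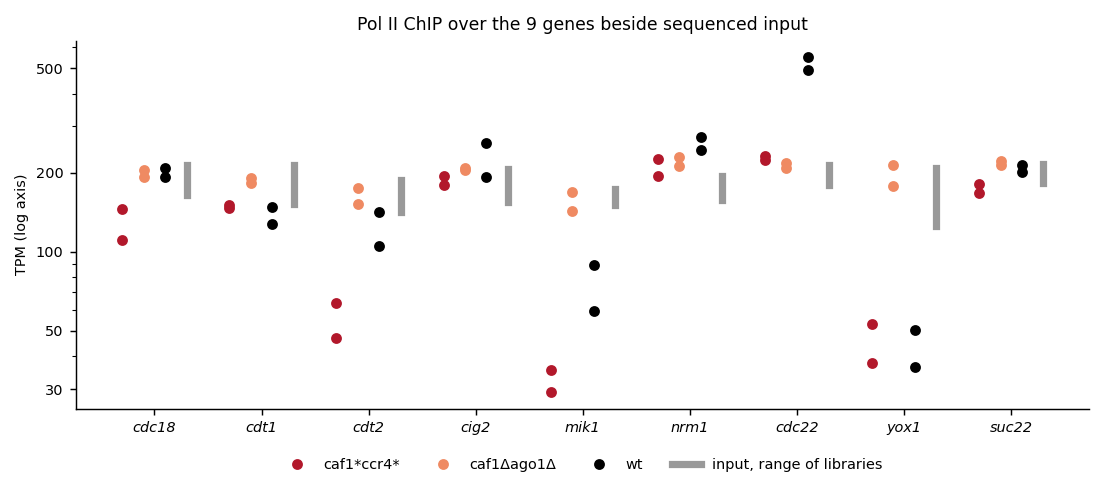
Pol II ChIP over each gene in caf1*ccr4* (red points), caf1Δago1Δ (orange) and wt (black), as TPM on a log axis, with the range of 13 input libraries as a grey bar. The caf1Δago1Δ points lie in or near the input bar for most genes, also where wt lies far above it (cdc22, 491 and 549) or far below it (yox1, 36.3 and 50.2), and the caf1*ccr4* points of cdt2, mik1 and yox1 lie well below the bar.

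The ratio of p(A) RNA to nascent RNA was compared in 1 model over both kinds of library. In caf1*ccr4* it rose for nrm1, with a change of 1.43 on the log2 scale (SE 0.27, adjusted p = 0.000708), and for cig2, with 1.31 (SE 0.33, adjusted p = 0.00993), where 5.48% of features were called higher and 9.11% in either direction. In TPM the nrm1 ratio was 0.978 in caf1*ccr4* and 0.335 in wt, and the cig2 ratio 0.836 in caf1*ccr4* and 0.311 in wt. Of the 9 genes, 8 had a higher ratio in the mutant, with a median change of 1.25 against -0.01 over all features, and suc22 had the only lower one (2.40 in caf1*ccr4*, 3.12 in wt, not called). These ratios reuse the RIP and p(A) RNA libraries described above and are not separate evidence. With each mutant fitted beside wt alone neither call held (adjusted p = 0.119 for nrm1 and 0.283 for cig2, the highest over the other settings), and without caf1*ccr4* RIP replicate 1 that of cig2 was lost (0.0918, the highest over the repeats without 1 library).

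The ratio of nascent RNA to Pol II occupancy fell in caf1*ccr4* for cdt1, by 2.17 on the log2 scale (SE 0.43, adjusted p = 0.0141, with 0.688% of features called lower and 1.12% in either direction), with 0.309 in caf1*ccr4* and 1.20 in wt. That call was lost in 2 of 8 repeats without 1 library, with adjusted p up to 0.188. In caf1Δago1Δ, with its flat ChIP libraries, the ratio fell for yox1 (log2 change -1.99, SE 0.51, adjusted p = 0.00717) and rose for suc22 (log2 change 0.84, SE 0.28, adjusted p = 0.0353), beside 5.48% of features called lower, 11.6% higher and 17.1% in either direction. The suc22 call was lost in 6 of 9 repeats without 1 library (highest adjusted p 0.139). Neither ratio had a member called in any other mutant with 2 or more libraries. The share of features called there was 7.51% in rrp6Δ, 1.12% in exo2Δ, 0.808% in mot2Δ, 0.512% in caf1Δ, 0.434% in ago1Δ and at most 0.0197% in the others for the ratio of p(A) RNA to RIP. For the ratio of RIP to ChIP it was 0.747% in rrp6Δ, 0.0983% in clr3Δ, clr4Δ and mot2Δ, 0.0786% in exo2Δ, 0.059% in ago1Δ, 0.0393% in caf1Δ and at most 0.0197% in the others.

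Other cell cycle genes were counted in the same fits. The shares of all features called in each fit, given above, are the background for the counts here and in the next paragraph. In caf1*ccr4* RIP, a list of 12 genes of mitosis and cell separation had 8 lower and 0 higher, with a median log2 fold change of -0.98. slp1, the Cdc20 activator of the anaphase-promoting complex, had log2 fold change -1.76 (adjusted p = 0.00239). Of 30 replication and S phase genes 3 were lower and 1 was higher, of 13 partners of the members 2 were lower and 1 higher, and of 9 core histone genes and 7 genes for MBF subunits and partners 0 were called in edgeR. The summed TPM of the mitosis list was 3910 to 3970 in caf1*ccr4* and 7330 to 7480 in wt. So genes of another cell cycle stage were lower in the same libraries as the MBF targets. Their part in the result was not tested.

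In caf1Δago1Δ RIP the mitosis list had 4 lower and 0 higher, the replication list 5 lower and 0 higher, the partners 6 lower and 1 higher, the histones 1 lower, and the MBF list 1 higher. mcm7, a subunit of the replicative helicase, had log2 fold change -0.63 (adjusted p = 0.00259) and slp1 had -1.39 (adjusted p = 0.00308). In ChIP of the same mutant all 9 core histone genes were called lower, with hhf1 at -2.18 (adjusted p = 0.00154) and hta2 at -2.12 (adjusted p = 0.00166), in the flat libraries. For the ratio of p(A) RNA to RIP in caf1*ccr4*, the 2 listed genes with the lowest adjusted p were spd1, the inhibitor of ribonucleotide reductase, at 1.74 (adjusted p = 0.000744) and ddb1, the partner of Cdt2, at -0.97 (adjusted p = 0.00182). For the ratio of RIP to ChIP in caf1Δago1Δ they were the histone genes hht2 at 2.42 (adjusted p = 0.00123) and hhf2 at 1.96 (adjusted p = 0.00137).

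Over the genotypes of p(A) RNA the 5 other coding genes most like the mean profile of the 9, by Pearson correlation over 13 genotypes, were SPCC306.11 (0.83), cts2 (0.82), pol1 (0.80), rad21 (0.78) and ptl2 (0.77). pol1 encodes the catalytic subunit of DNA polymerase alpha and rad21 a cohesin subunit. The summed level of the 9 genes correlated with that of the replication list at 0.87 in p(A) RNA, 0.29 in RIP and -0.40 in ChIP, and with that of the mitosis list at 0.84 in p(A) RNA, 0.80 in RIP and 0.66 in ChIP, as descriptions over genotypes that share libraries and scaling. Such a sum weighs the highest members most: in wt, suc22 in p(A) RNA (560 TPM) and cdc22 in RIP (970) and ChIP (520).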

How the data were processed

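The authors aligned reads with STAR 2.7.3a and counted them with a script based on HTSeq, against a PomBase annotation, with ribosomal RNA reads removed. RNA was counted by strand and ChIP without strand, and the deposited files hold raw counts per gene, 1 file per library. Of these, 121 files were used. H3K9me2 ChIP was not used. Groups came from the labels, and libraries of 1 strain spelled in another way in p(A) RNA were taken as caf1*ccr4*.

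Counts were fitted with edgeR 4.0.16 (quasi-likelihood, TMM, R 4.3.3), 1 fit per assay over all genotypes, on protein-coding and heterochromatic features that reached 10 counts in 2 or more libraries. p-values were adjusted by Benjamini-Hochberg within each mutant, with 0.05 as the threshold, and none was given for 1 library. Ratios were tested as interactions. ChIP libraries with a Spearman correlation under 0.8 to every replicate (mit1Δ and rrp6Δ replicate 3) were left out. In total RNA the libraries of caf1Δ (0.79), clr4Δ (0.736) and wt (0.797) were under this limit too and were kept, since the limit was set for groups of 3 or more libraries. TPM used the gene lengths in the files. Fold changes come from the TMM-scaled fit, not from TPM. A negative log2 fold change is lower in the mutant. The fits were tested on simulated data.

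Coordinates and sequences come from the reference ASM294v3 of RefSeq. The deposited counts carry no coordinates, and all 9 genes matched by identifier. In total RNA, the 9 pairs of libraries with the same replicate number deviated together (r from 0.24 to 0.86), so the numbers were taken as pairs there from the data alone, and with the replicate block 0 members were called. In the block fit of total RNA, wt replicate 3 has no partner, so wt rests on replicate 2 alone. All members were described. A pair of member and mutant was described in full where called, other lists by their counts and at most the 2 genes with the lowest adjusted p in each mutant with 2 or more member calls, and the 5 most similar profiles by correlation. Alternatives were another size factor, DESeq2 1.42.0, no filter, all features, separate fits, a replicate block, scaled input subtraction and leaving out each library. The genes and lists were chosen with earlier results of these data known. One gene of another list that this rule would name is not reported here.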

Additional observations from a re-analysis of the deposited data

Results flagged for a closer look

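Of 36 groups of 4 to 10 libraries in which each member was checked for a library far from the rest, 4 had one, where chance alone gives about 1 in 20. All 4 flags fell on 2 chp2Δ libraries, p(A) RNA replicate 2 and RIP replicate 4, which stood below the other 3 of their group. In p(A) RNA, chp2Δ replicate 2 had 23.7 TPM of cdc18 (the others had 47.5 to 52.2) and 31.5 TPM of cdt1 (the others had 75.2 to 77.6). In RIP, chp2Δ replicate 4 had 74.0 TPM of cdt1 (the others had 163 to 168) and 28.0 TPM of mik1 from 35 counts (the others had 61.8 to 68.6). No member was called in chp2Δ in either assay.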

How the results depend on the processing

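Of 26 calls of a member in a mutant, settings other than leaving out a library kept the call 161 times and lost it 21 times, repeats without 1 library kept it 82 times and lost it 58 times, no direction turned (0 in either), and 4 calls held throughout. For p(A) RNA (3 calls) the count was 2 to 3 without 1 library and 1 with each mutant fitted beside wt alone. For RIP (12 calls) it was 4 to 15 without 1 library, with 5 without caf1*ccr4* replicate 1, 7 without wt replicate 1 and 4 without wt replicate 2. For ChIP (6 calls) it was 2 to 10 without 1 library, with 10 without chp2Δ replicate 3, 3 and 2 without either caf1Δago1Δ library and 3 without wt replicate 1. Subtracting scaled input, which leaves out caf1Δago1Δ, gave 2, and leaving out the flat libraries, chosen after seeing the data, gave 4. Total RNA gave 0 throughout. For the ratio of p(A) RNA to RIP (2 calls) it was 1 to 3 without 1 library and 0 with each mutant beside wt alone. For the ratio of RIP to ChIP (3 calls) it was 1 to 5 without 1 library and 1 without the flat libraries. The causes were not tested, other than that some settings hold fewer libraries or mutants.

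With a replicate block the counts were 13 in RIP, 6 in ChIP, 2 and 4 for the ratios and 0 in total RNA, with 3 in p(A) RNA. Outside total RNA same-numbered libraries did not deviate together (median r from 0.01 to 0.04), so the block there pairs only numbers. TPM over all features moved 14 of 27 wt levels by more than their SD, all 9 in RIP (cdc22 to 572). RIP depth limits mik1 (5 counts in 1 caf1*ccr4* library) and yox1 (1 count in 1 chp2Δ library, 8 in 1 caf1Δago1Δ library).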
